A study of Homo sapiens with 6 samples.

Results

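Genes of the cytosolic and mitochondrial folding machinery, together with the heat shock factors, were followed in cells given atractylon, a sesquiterpenoid of the essential oil of Atractylodes rhizomes. They were taken by gene symbol from a list of 46, and all 46 had transcripts in the table, of 33752 gene symbols in all. The cells were HepG2, a line from a human liver tumour. The 3 atractylon libraries came from HepG2 cells given 20 µM atractylon, and the 3 untreated libraries from HepG2 cells without it. Both groups grew in DMEM with fetal bovine serum, and neither a time of exposure nor a vehicle for the untreated cells is given in the labels. Each library is one replicate by its label. Whether the replicates were grown apart is not stated, so the spread behind each p-value may be technical.

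Chaperones bind unfolded protein and let it fold or be handed on. HSP70 proteins work in cycles of ATP hydrolysis that J-domain proteins start and that nucleotide exchange factors end, and HSP90 takes over many kinases and steroid receptors from HSP70 through bridging co-chaperones. The chaperonin CCT, a ring of related subunits, folds actin and tubulin, and a separate set of chaperones serves the mitochondrial matrix. When unfolded protein builds up, heat shock factor 1 (HSF1) forms trimers that bind heat shock elements in promoters and raise transcription of the inducible members. For that reason 14 members whose transcription is known to rise on heat or proteotoxic stress were set apart as stress-induced, and the other 32 were taken as constitutive. The division is not sharp. A wider stress-induced class of 22 members also held HSPA8, HSPA4, HSP90AB1, HSPD1, HSPE1, BAG2, PTGES3 and FKBP4.

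The heat shock element is the letter pattern that HSF1 trimers recognise. It was searched in 300 bases of promoter, from 250 bases before to 50 after the gene start, as GAANNTTCNNGAA and as TTCNNGAANNTTC. Each form is the reverse complement of the other, so both strands were covered. RefSeq promoters (GRCh38.p14) matched 41 of the 46 members. The element with 3 units was present in 2 of 14 stress-induced promoters (14.3%) and 2 of 27 constitutive ones (7.41%), against 172 of 35114 promoters in the table (0.49%). A looser pattern of 2 units, GAANNTTC or TTCNNGAA, was present in 6 of 14 (42.9%), 6 of 27 (22.2%) and 4737 of 35114 (13.5%). The 2-unit pattern is contained in the longer one.

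The 4 promoters with a full element are shown because they matched the exact pattern, and the RNA of each is given further on. Bases of the element are in capitals. The HSPA8 promoter had matches that began 230 and 55 bases before the gene start, DNAJA1 had 1 that began 3 bases after it, and DNAJB6 had 1 that began 131 bases before it. CHORDC1 had 3 overlapping matches, which began 60, 55 and 50 bases before the start and join into 1 run.
HSPA8, chr11:123062087-123062386 (- strand): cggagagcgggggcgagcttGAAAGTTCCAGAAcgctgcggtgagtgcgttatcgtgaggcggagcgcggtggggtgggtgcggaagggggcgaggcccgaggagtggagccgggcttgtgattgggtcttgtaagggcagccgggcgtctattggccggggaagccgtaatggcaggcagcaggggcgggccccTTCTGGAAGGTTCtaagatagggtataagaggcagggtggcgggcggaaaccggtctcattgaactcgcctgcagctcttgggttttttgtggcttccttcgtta
CHORDC1, chr11:90223000-90223299 (- strand): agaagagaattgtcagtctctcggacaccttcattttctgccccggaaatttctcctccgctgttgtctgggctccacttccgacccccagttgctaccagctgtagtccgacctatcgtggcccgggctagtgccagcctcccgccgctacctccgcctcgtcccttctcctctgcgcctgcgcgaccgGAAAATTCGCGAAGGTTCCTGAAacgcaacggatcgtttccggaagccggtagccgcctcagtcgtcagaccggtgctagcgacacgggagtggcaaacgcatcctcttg
DNAJA1, chr9:33025023-33025322 (+ strand): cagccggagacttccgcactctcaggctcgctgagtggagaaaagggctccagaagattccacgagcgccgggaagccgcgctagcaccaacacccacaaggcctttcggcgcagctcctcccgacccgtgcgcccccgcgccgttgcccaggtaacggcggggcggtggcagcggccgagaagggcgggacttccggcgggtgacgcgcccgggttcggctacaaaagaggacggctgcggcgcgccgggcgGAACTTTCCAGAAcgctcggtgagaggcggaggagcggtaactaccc
DNAJB6, chr7:157336754-157337053 (+ strand): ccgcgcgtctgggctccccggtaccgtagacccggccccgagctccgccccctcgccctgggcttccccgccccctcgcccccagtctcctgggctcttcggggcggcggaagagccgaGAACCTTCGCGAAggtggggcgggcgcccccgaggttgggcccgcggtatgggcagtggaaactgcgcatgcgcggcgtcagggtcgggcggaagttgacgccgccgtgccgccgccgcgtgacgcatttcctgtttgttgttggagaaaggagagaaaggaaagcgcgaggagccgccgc
A match is a run of letters and not a measured binding site. Lack of a match does not show lack of an element, since only exact units in these 300 bases were searched. HSPA1A, HSPA1B, HSP90AA1, HSPH1, HSPB1, BAG3 and DNAJB1, all of the stress-induced class, had 0 matches.

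No chaperone or heat shock factor gene passed the threshold between atractylon and untreated cells. Counts were tested by edgeR's quasi-likelihood method, p-values were adjusted over 12293 genes (Benjamini-Hochberg), and the threshold on the adjusted p was 0.05. Of the 46 members 42 passed the filter, an FPKM (fragments per kilobase of transcript, scaled to library depth) of at least 0.5 in at least 3 libraries. Of these 42, 0 were higher and 0 were lower, where 0% of all genes tested were called. At an unadjusted p below 0.05 there was 1 member of 42 (2.38%), against 1.61% of all genes, and DESeq2 and limma called 0 members, with 0 at an unadjusted p below 0.05. The adjusted p was 0.9999 for each of the 42 members by edgeR's quasi-likelihood test, so it is not repeated gene by gene.

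For the tested members the intervals bounded the size of a change, as far as the spread between these libraries allows. That spread may be technical, and each interval was made for 1 gene at a time. For all 42 tested members the 95% confidence interval stayed inside a 2-fold change either way, against 81.3% of all genes tested, and within 1.5-fold for 34 members (81.0%), against 54.7% of all genes. The median standard error (SE) of the members' log2 fold change was 0.128, against 0.196 over all genes.

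**Figure D1:**
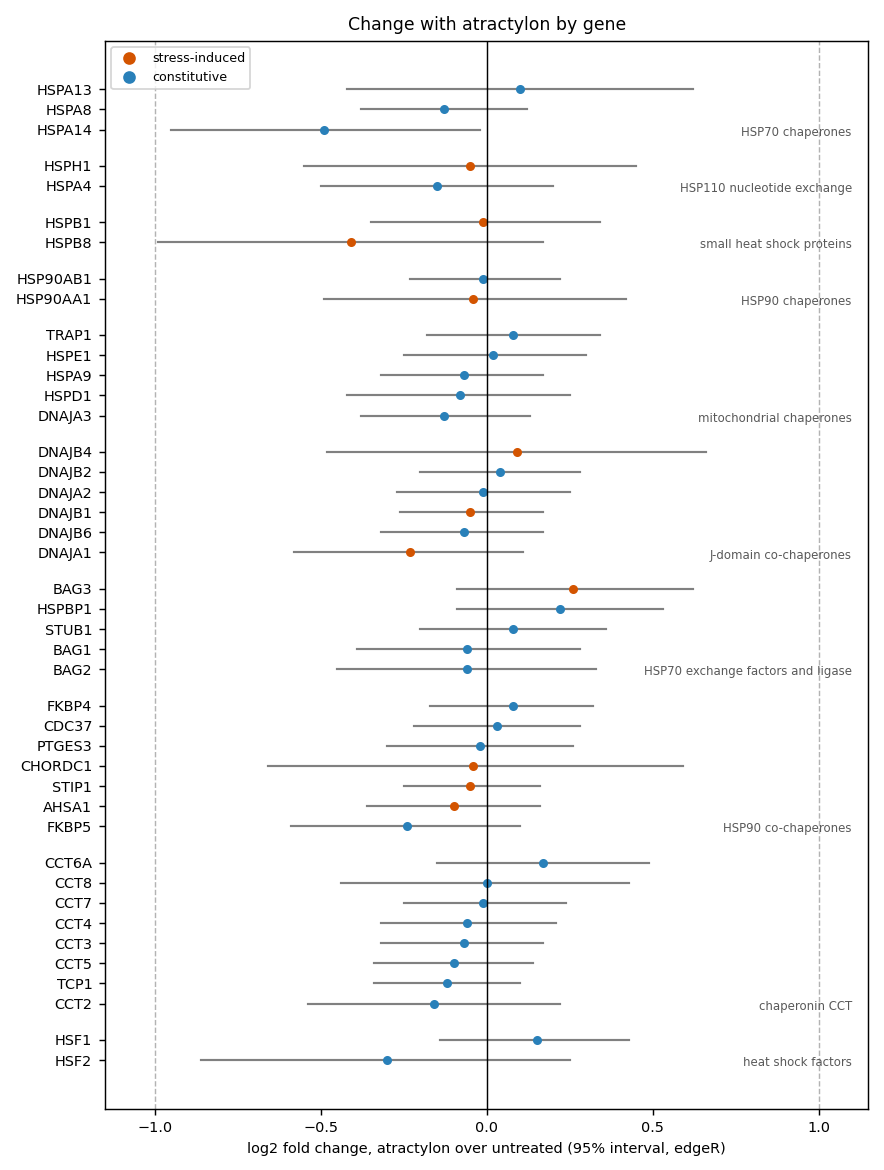
Log2 fold change of atractylon over untreated cells for the 42 tested members, grouped by role, with the 95% confidence interval from edgeR as a line. Dashed lines mark a 2-fold change in either direction, and no interval reaches them, while 1 interval, that of HSPA14, lies wholly on one side of 0.

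Before the genes are taken in turn, 1 feature of the libraries is given because it moves with the spread between replicates. Total expected counts ran from 5859575 to 8832092 per library. Abundance of the members followed the GC content of their transcripts differently in each library. That content ran from 35.1% in HSPA13 to 64.9% in STUB1, with a median of 45.3%. Over the members, deviation from the 6-library mean and GC content had a Spearman rho of -0.860, 0.795 and 0.554 in the 3 atractylon libraries, in replicate order. In the 3 untreated libraries rho was -0.607, 0.163 and 0.209. A trend also ran over all 12293 genes tested, with rho of -0.597, 0.595 and 0.393 in the atractylon libraries. In the untreated ones rho over all genes was -0.422, 0.176 and 0.021, so the trend was not particular to the members. These are descriptions over genes of the same libraries and carry no p. The first replicate of both groups was thus higher in AT-rich members than in GC-rich ones, and atractylon replicates 2 and 3 ran the other way. Removing the trend lowered the SE in 35 of 42 members, to a median of 0.113. The trend was fitted to these same libraries, so some lowering was built in, and its share over all genes was not counted. The cause of the trend was not tested.

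**Figure D2:**
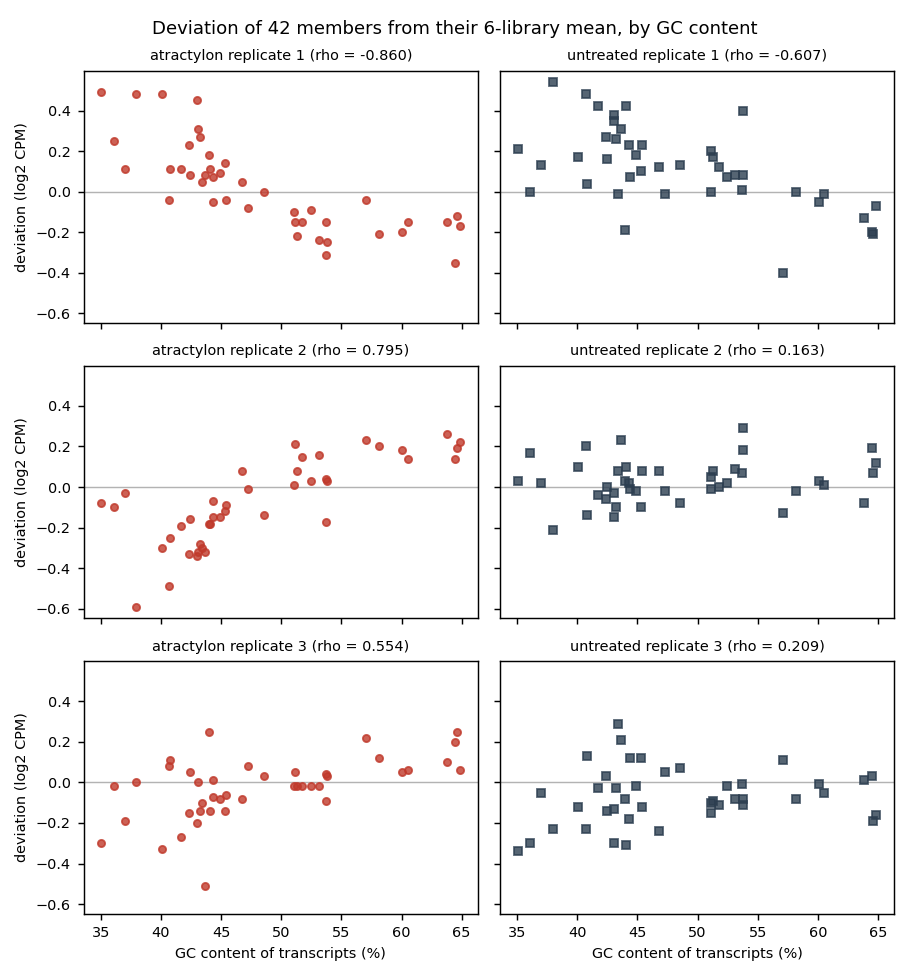
Deviation of each of the 42 tested members from its own 6-library mean (log2 CPM, counts scaled to library size) against the GC content of its transcripts, 1 panel per library, atractylon on the left and untreated on the right. Points fall with GC content in replicate 1 of both groups (rho = -0.860 and -0.607) and climb with it in atractylon replicate 2 (rho = 0.795). Over all 12293 genes tested, rho in these libraries was -0.597, -0.422 and 0.595.

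Levels of the members differed far more between genes than between groups. Per length, the most abundant was HSP90AB1 at 1176 FPKM on average over the 6 libraries, followed by HSPA8 at 1013, CCT7 at 562 and HSPD1 at 354 FPKM. HSP90AB1 averaged 1163 ± 49.4 FPKM with atractylon and 1189 ± 29.2 FPKM without it, and HSPA8 averaged 957 ± 65.1 FPKM with atractylon and 1069 ± 120 FPKM without it (SD, n = 3 each). In FPKM the levels of these top 2 genes overlapped in untreated cells. The 465-base non-coding HSPA8-220 held 24.4%, 29.3% and 27.9% of HSPA8 FPKM there. In CPM, which is not scaled to length, untreated HSP90AB1 was at 2952, 2938 and 3073 and HSPA8 at 1838, 1655 and 1446, without overlap. At the low end stood BAG2 at 2.33 FPKM, HSPB8 at 2.70 and DNAJB4 at 3.65. All 46 members together summed to 6190, 6021 and 6132 FPKM in the atractylon libraries and to 6732, 6317 and 5962 FPKM in the untreated ones, and the groups overlapped. All 10 hepatocyte markers passed the filter, ALB at 3591 and AFP at 257 FPKM among them, with sums of 14530 to 16568 FPKM with atractylon and 15091 to 16220 FPKM without it. COL1A2, COL3A1, LUM and DCN of fibroblasts, HBB of red cells and KDR and TEK of endothelium were at 0 FPKM. In bulk RNA, fewer cells that make a transcript and less of it per cell cannot be told apart.

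**Figure D3:**
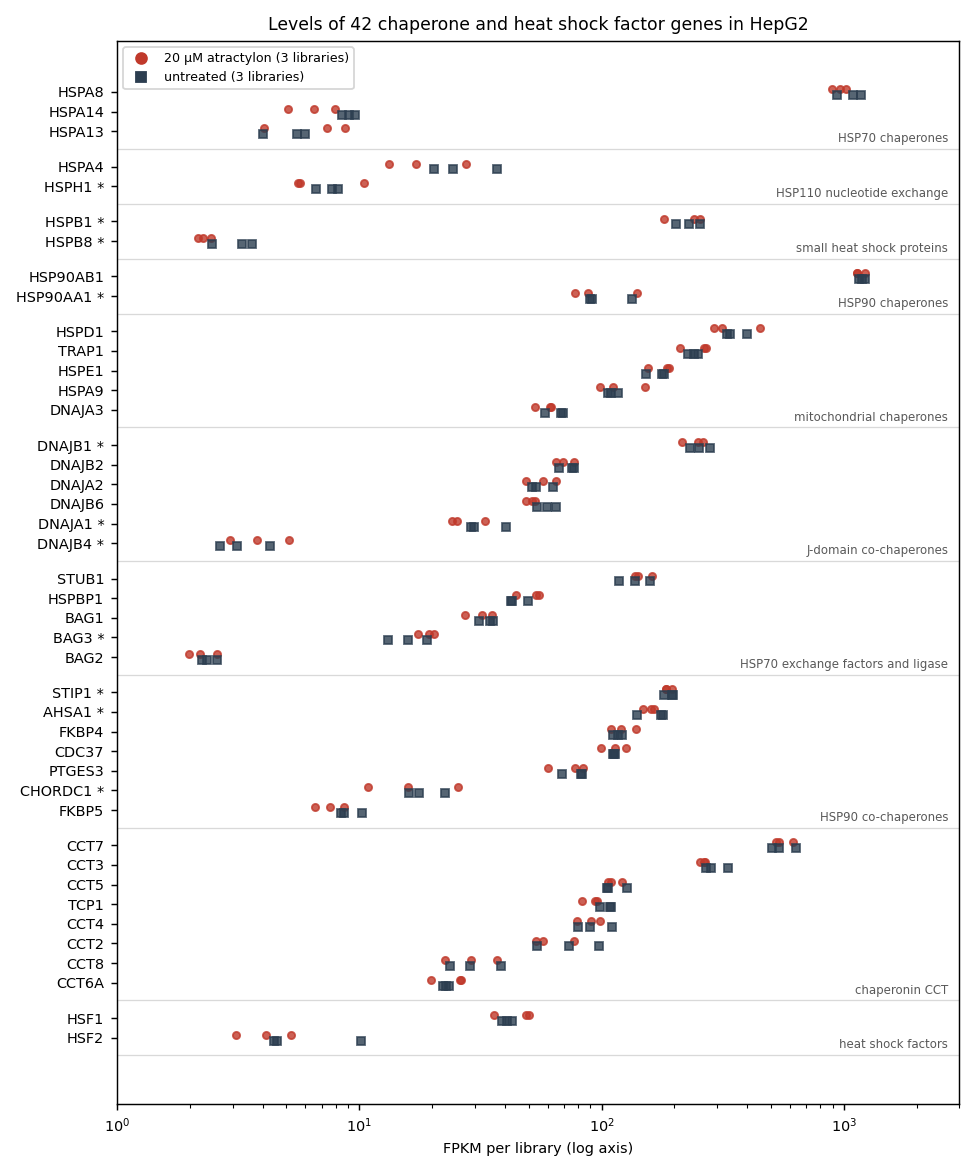
FPKM of the 42 tested members in each library on a log axis, with atractylon as circles above untreated as squares and stress-induced genes marked by a star. Levels span from about BAG2 at 2.33 FPKM to HSP90AB1 at 1176 FPKM, and the groups overlap on this scale in all rows but CCT3, DNAJB6, HSPA14, HSPB8 and TCP1, which are lower with atractylon.

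Among the stress-induced class, 11 of 14 genes were tested, and 0 rose or fell. Of these 11, 2 had positive and 9 negative log2 fold changes, with a median of -0.046, against 0.012 over all genes tested. The class summed to 963, 998 and 1024 FPKM in atractylon replicates 1 to 3 and to 1055, 1075 and 953 FPKM in untreated replicates 1 to 3. The constitutive class, with 31 of 32 genes tested, had 10 positive and 21 negative fold changes and a median of -0.056. In the wider stress-induced class 19 of 22 genes were tested, with 4 positive and 15 negative fold changes, a median of -0.046 and 0 called. No group test was made, since the genes were chosen with results known.

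The 3 stress-induced members below the filter were HSPA1A, HSPA1B and DNAJA4. HSPA1A and HSPA1B encode the classic inducible HSP70 from a pair of nearly identical genes in the major histocompatibility region of chromosome 6. HSPA1A was listed at 0 counts in all 6 libraries, and HSPA1B at 3 counts in untreated replicate 2 and at 0 in the other 5. Summed into 1 feature they still had an FPKM of at least 0.5 in 0 libraries. CSNK2B, the regulatory subunit of casein kinase 2 that nearly all cells need and whose gene lies in the same region, was likewise at 1, 0 and 1 counts with atractylon and at 1, 1 and 1 without it (chosen after its values were seen). BAG6, another gene of this region, had 2389 to 2580 counts with atractylon and 2014 to 2812 without it. Low values thus did not hold across the region, and their cause was not tested. A value of 0 for HSPA1A or HSPA1B is still not read as absence of the RNA. Any response of these genes was not detectable in these values. DNAJA4, a J-domain protein whose promoter is heat-responsive, was at 0 in every library, and a count of 0 allows up to 3 counts, or 0.372 to 0.562 CPM by library.

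HSP90AA1, the inducible HSP90 alpha, had 463, 267 and 294 CPM (counts scaled to the effective library size) in atractylon replicates 1 to 3 and 440, 305 and 309 CPM in untreated replicates 1 to 3. The first replicate stood highest in both groups, and the groups overlapped. Its log2 fold change was -0.04 ± 0.21 (SE), with an interval of -0.49 to 0.42. The value turned on single libraries, at -0.32 without atractylon replicate 1 and 0.16 without untreated replicate 1, with adjusted p of at least 0.454 over 19 alternatives. With the GC trend removed it was 0.01 ± 0.12. HSP90AB1, the constitutive HSP90 beta, was steadier, at 2813, 2959 and 3149 CPM against 2952, 2938 and 3073 CPM, and its interval of -0.23 to 0.22 was the narrower of the pair. The ratio of HSP90AA1 to HSP90AB1 in FPKM was 0.123, 0.0687 and 0.0724 with atractylon and 0.112, 0.0771 and 0.0751 without it, so the same replicate was high on both sides.

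HSPH1, the inducible HSP110 that exchanges nucleotide on HSP70, followed the same shape, with 36.6, 21.3 and 20.8 CPM in the atractylon libraries and 29.6, 28.2 and 24.1 CPM in the untreated ones. Without atractylon replicate 1 its log2 fold change was -0.37, against -0.05 ± 0.23 with all 6 libraries. Its constitutive relative HSPA4 had 86.3, 58.3 and 66.4 CPM against 88.9, 70.4 and 75.1 CPM. For both genes the treated range enclosed or overlapped the untreated one, and the GC content was low, at 40.1% and 42.4%.

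The small heat shock proteins hold unfolded protein without ATP. HSPB1 (HSP27) had 126, 177 and 185 CPM with atractylon and 141, 184 and 165 CPM without it, the lowest library being the first in each group. HSPB1 has a GC content of 64.5%, against 43.0% in HSP90AA1, whose first replicate was the highest in each group. HSPB8, which works with BAG3 in selective autophagy, had 4.37, 4.86 and 5.15 CPM against 7.35, 6.79 and 5.07 CPM. Untreated replicate 3 fell within the treated range, and the log2 fold change of -0.41 ± 0.26 (SE) did not pass. With that library left out it was -0.56.

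BAG3, the stress-induced exchange factor that links HSP70 to autophagy, had the largest positive log2 fold change of the 42 tested members, at 0.26 ± 0.16 (SE). Its values were 41.2, 49.8 and 49.6 CPM in atractylon libraries and 32.1, 38.8 and 45.8 CPM in untreated ones. Of the 3 treated libraries 2 were above every untreated library, while atractylon replicate 1 lay below untreated replicate 3. The sign was positive in all 19 alternatives, from 0.15 without untreated replicate 1 to 0.40 without untreated replicate 3, and the lowest adjusted p among them was 0.444. HSPBP1, an exchange factor that also restrains the ubiquitin ligase STUB1, behaved alike in size, with 62.4, 77.3 and 80.7 CPM against 58.4, 71.3 and 59.5 CPM and a log2 fold change of 0.22 ± 0.14. STUB1 (CHIP), which marks chaperone-bound clients for the proteasome, had 146, 191 and 171 CPM against 156, 178 and 146 CPM. For these 3 genes the groups overlapped, and none passed. BAG1 and BAG2, an exchange factor and an inhibitor of STUB1, had log2 fold changes of -0.06 each.

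**Figure D4:**
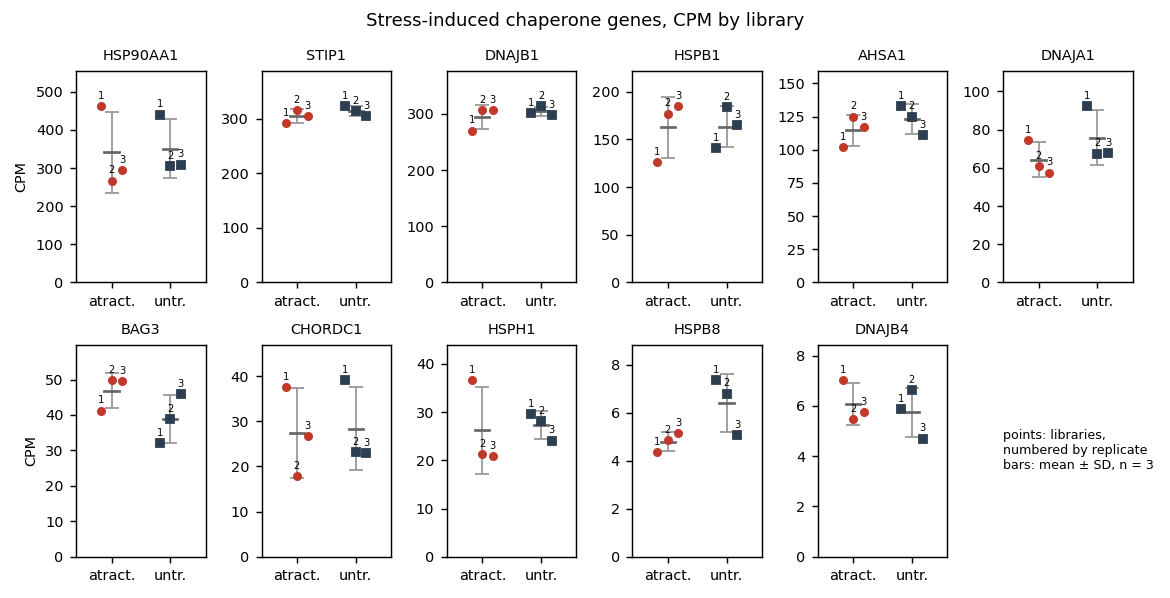
CPM of the 11 tested stress-induced genes in the 3 atractylon (left in each panel) and 3 untreated libraries, numbered by replicate, with the mean ± SD as bars. Replicate 1 is the highest of both groups in HSP90AA1 and CHORDC1 and the lowest of both in HSPB1 and BAG3, and no gene separates the groups.

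Among J-domain proteins, which deliver clients to HSP70 and trigger its ATP hydrolysis, DNAJB1 (HSP40) is the main partner of inducible HSP70. It had 270, 307 and 307 CPM with atractylon against 301, 314 and 298 CPM, a log2 fold change of -0.05 with an interval of -0.26 to 0.17. DNAJB1 is a well-known direct target of HSF1. DNAJA1 had 74.6, 60.8 and 57.5 CPM against 92.4, 67.4 and 67.7 CPM, with the first replicate highest in each group and a log2 fold change of -0.23 ± 0.16. DNAJB4 was scarce, at 7.02, 5.47 and 5.76 CPM against 5.88, 6.64 and 4.70 CPM. Of the constitutive ones, DNAJB6, which keeps aggregation-prone proteins soluble, had 92.6, 83.8 and 94.2 CPM against 101, 87.2 and 96.9 CPM. DNAJA2 and DNAJB2 had log2 fold changes of -0.01 and 0.04.

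HSPA8, the constitutive cytosolic HSP70, had 1530, 1473 and 1509 CPM in the atractylon libraries and 1838, 1655 and 1446 CPM in the untreated ones. Untreated replicate 3 was the lowest of all 6, so the groups overlapped, and the log2 fold change was -0.13 ± 0.11 (SE). HSPA14, which works with a J-domain partner at the ribosome, was the single member whose groups did not overlap in CPM, and the one with an unadjusted p below 0.05. It had 12.5, 9.42 and 8.19 CPM with atractylon and 14.7, 13.9 and 13.7 CPM without it, a log2 fold change of -0.49 ± 0.21 (SE, interval -0.95 to -0.02, adjusted p = 0.9999 by edgeR's test). One lower member of 42 without overlap is 2.38%, against 3.02% of all genes tested, and 0 members were higher without overlap, against 2.71%. On the authors' FPKM scale 5 of 42 members (11.9%) were lower without overlap, against 4.1% of all genes, and 0 were higher, against 3.2%. The HSPA14 symbol covers 2 gene IDs that share sequence, so their separate values are uncertain. Kept apart, they had log2 fold changes of -0.63 ± 0.47 and -0.42 ± 0.21 (SE), and neither passed. HSPA13, linked to the secretory pathway, had 29.3, 19.7 and 16.8 CPM against 24.1, 21.3 and 16.3 CPM. HSPA2, known from the testis, did not pass the filter, with a mean of 0.15 FPKM.

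The promoters with a full element printed above belong to HSPA8, CHORDC1, DNAJA1 and DNAJB6, and each of these had a negative log2 fold change that did not pass. CHORDC1, an HSP90 co-chaperone with 3 overlapping matches, had 37.6, 17.8 and 26.8 CPM with atractylon and 39.1, 23.2 and 22.9 CPM without it. Its log2 fold change was -0.04 ± 0.28 with all libraries, -0.34 without atractylon replicate 1 and 0.25 without untreated replicate 1. The 4 genes therefore show no call in either direction, and for CHORDC1 the direction depended on which library was kept.

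The other HSP90 co-chaperones carry clients or tune the ATPase. STIP1 (HOP), the bridge from HSP70 to HSP90, was among the most even members, with 291, 316 and 305 CPM against 323, 314 and 305 CPM and an interval of -0.25 to 0.16. AHSA1, the activator of the HSP90 ATPase, had 102, 125 and 117 CPM against 133, 125 and 111 CPM. FKBP5, an immunophilin and well-known target of the glucocorticoid receptor, had 33.7, 26.4 and 30.3 CPM against 32.3, 34.5 and 39.8 CPM. Of its 3 treated libraries 2 lay below every untreated one, and the log2 fold change was -0.24 ± 0.16 (SE). CDC37, which brings kinases, PTGES3 (p23), which closes the HSP90 clamp, and FKBP4, a steroid receptor partner, had log2 fold changes of 0.03, -0.02 and 0.08.

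In the mitochondrial set 0 of 5 genes passed. HSPD1, the HSP60 chaperonin, had 540, 368 and 406 CPM with atractylon against 536, 418 and 439 CPM, with the first replicate far above the others in both groups. Its log2 fold change was -0.08 ± 0.15, and -0.02 ± 0.08 with the GC trend removed. HSPE1, its lid HSP10, is transcribed from the same promoter region, and it had 98.1, 100 and 89.5 CPM against 103, 100 and 80.2 CPM. TRAP1, the mitochondrial HSP90, had 408, 542 and 512 CPM against 470, 464 and 446 CPM, so 2 of 3 treated libraries were above and 1 was below every untreated one. DNAJA3 had 133, 161 and 160 CPM against 167, 179 and 149 CPM. HSPA9 (mortalin), the matrix HSP70, had a log2 fold change of -0.07 on counts and 0.10 on log2(FPKM + 0.5), so it had no settled sign. A short transcript made up much of the HSPD1 level in FPKM, since the 648-base HSPD1-213, a retained-intron transcript, held 40.9% to 49.5% per library. It held far less of the counts, with 337.69 to 693.18 expected counts per library. The coding HSPD1-202 had 1886.36 to 3215.18.

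The CCT ring holds its 8 subunits in equal number in the protein, yet their RNA levels spread from CCT6A at 23.4 FPKM to CCT7 at 562 FPKM. Of the 8 subunit genes 7 had negative and 1 had positive log2 fold changes, with a median of -0.065, and 0 passed. The sign turned in at least 1 alternative for CCT2, CCT3, CCT4, CCT7 and CCT8. Summed over the subunits the level was 1238, 1247 and 1213 FPKM with atractylon and 1473, 1246 and 1169 FPKM without it, so untreated replicate 1 stood alone at the top. CCT7 had 709, 874 and 777 CPM against 857, 787 and 726 CPM. TCP1, the alpha subunit, had 166, 155 and 173 CPM against 180, 170 and 187 CPM, a log2 fold change of -0.12 ± 0.10, and only 1 treated library reached into the untreated range. CCT6A had 61.9, 48.1 and 65.0 CPM against 47.9, 55.8 and 51.8 CPM, the one subunit with a positive value, at 0.17 ± 0.14. The remaining subunits lay between -0.16 in CCT2 and 0.00 in CCT8.

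Both heat shock factors were expressed. HSF1 had 65.1, 86.3 and 77.0 CPM with atractylon and 65.6, 68.0 and 72.4 CPM without it, so 2 of 3 treated libraries were above every untreated one. The log2 fold change was 0.15 ± 0.13 (SE, interval -0.14 to 0.43). HSF2 was scarcer, with 10.1, 7.29 and 10.9 CPM against 14.5, 11.9 and 8.78 CPM, a log2 fold change of -0.30 ± 0.25. HSF1 is activated on the protein level, so its RNA does not measure its activity.

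The count of members in each direction shifted when 1 untreated library was left out. Of the 42 tested members 30 (71.4%) had negative log2 fold changes, against 46.7% of all genes tested. Untreated replicate 1 was the highest of the 6 libraries in 18 members (42.9%), against 16.8% of all genes. Without that library 20 members (47.6%) had negative and 22 had positive values, against 45.1% negative over all genes. Members were often highest in that library, so leaving it out was bound to move their values upward, and no conclusion is drawn from the shift. In turn, with the GC trend removed 24 were negative and 18 positive, which is 57.1% negative against 41.3% of all genes tested. Over 19 alternatives 16 members kept 1 sign throughout, of which BAG3, CCT6A, HSF1 and HSPBP1 were positive and 12 were negative, HSPA8, HSPA14, HSPB8, DNAJA1, FKBP5 and TCP1 among them. None of these 16 passed the threshold in any of those alternatives.

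Transcripts were tested in the same way, 39881 in all, and 0 (0%) passed. Of 173 member transcripts tested, 4 (2.31%) had an unadjusted p below 0.05, against 2.33% of all transcripts. CCT3-210, a 610-base non-coding transcript of CCT3, was at 0, 0.94 and 0 FPKM with atractylon and 14.5, 5.20 and 19.0 FPKM without it. Its expected counts were 0.00, 2.40 and 0.00 against 29.71, 13.29 and 58.61, and the transcript was at most 0.356% of CCT3 in treated and between 1.83% and 7.02% in untreated libraries. HSF1-201 had 2.63, 5.24 and 2.58 FPKM against 0.79, 1.13 and 1.13 FPKM; its log2 fold change was 1.77 ± 0.51 (SE). The main transcript HSF1-204 held 63.9% to 78.8% of the gene in every library. TCP1-203 had 24.6, 22.7 and 20.1 FPKM against 35.6, 24.4 and 35.4 FPKM, a log2 fold change of -0.49 ± 0.18 (SE). In CPM, TCP1-203 had 37.5, 36.4 and 32.1 with atractylon against 54.0, 38.5 and 56.0 without it. The groups did not overlap in CPM in these 3 transcripts, while in FPKM those of TCP1-203 did. The transcripts named were picked by small p, so lack of overlap among them adds no support. Its share over all transcripts was not counted. HSPA8-201 had 488, 410 and 401 FPKM against 578, 534 and 458 FPKM, which overlap. HSPD1-208, marked for nonsense-mediated decay, had 4.64, 8.65 and 10.2 FPKM against 0, 0 and 2.95 FPKM. CCT2-202, the fourth with an unadjusted p below 0.05, had 0.63, 0.65 and 0.71 FPKM with atractylon and was listed at 0 in all 3 untreated libraries. Its expected counts were 9.86, 9.38 and 10.07 with atractylon. CCT2-202 met the filter only through the treated libraries, so its lack of overlap and its p are no evidence of a change. CCT3-210 and HSPD1-208 also reached 0.5 FPKM in 3 libraries only in the group where they were higher. Reads were divided between overlapping transcripts, so these values are less certain than those of whole genes.

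Of 82 other genes of the folding network, such as prefoldins, mitochondrial proteases and further J-domain proteins, 72 were tested. Of these, 0 rose and 0 fell, 35 had positive and 37 negative log2 fold changes, and the median was -0.022. Those with the smallest p were DNAJC6 at 1.85 ± 0.736 against 3.43 ± 1.39 CPM, RUVBL2 at 243 ± 47.3 against 204 ± 12.4 CPM, DNAJC18 at 2.86 ± 0.818 against 4.35 ± 0.595 CPM and DNAJC9 at 31.2 ± 2.16 against 37.0 ± 2.58 CPM (SD, n = 3 each, with atractylon against without). HSPA6, an HSP70 gene that is nearly silent without stress, averaged 0.118 FPKM and did not pass the filter.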

How the data were processed

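RNA was measured in 6 HepG2 libraries, and the labels' protocols name a SMART-Seq v4 kit for small RNA amounts. The authors deposited expected counts and FPKM values for 180253 transcripts, per the file headers. The build was hg19 and the tools included HISAT2 2.0.1 and cutadapt 1.9.1, per the submitters' processing notes, which also name DESeq2 1.6.3. What program and annotation gave the expected counts, and whether strand was used, was not given in the sources used here.

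Transcripts were matched by ID to GENCODE 29, used for names and not for coordinates: 153243 (85%) matched, and the other 27010, with 8.70% to 9.08% of counts, were left out. Expected counts and FPKM were summed per symbol, and counts were rounded. Genes with FPKM of at least 0.5 in at least 3 libraries were tested with edgeR 4.0.16 (TMM, glmQLFit, glmQLFTest, group only, 2-sided). SEs come from the F statistic. Alternatives used DESeq2 1.42.0, limma 3.58.1 on log2(FPKM + pseudocount), other filters and scaling, a GC offset (spline, 5 df), and libraries left out. Replicates differed beyond sampling noise (chi-square per degree of freedom 3.39 to 19.15).

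Members, classes and lists were chosen with earlier results of these data known. Values in every library were given for stress-induced members, heat shock factors and, in each other role, the most abundant member and up to 2 with the smallest p. HSPA13 and HSPE1, given after their values were seen, are outside this rule. Amplification and the division of reads can shift values by GC and length. Processed pseudogenes and the readthrough gene HSPE1-MOB4 can share reads with HSPD1, HSPE1, HSPA8, HSP90 and CCT genes, so those levels are uncertain. Intervals cover the spread between libraries, and floors cover counting error only.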

Additional observations from a re-analysis of the deposited data

How the results depend on the processing

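Over 19 alternatives 0 members passed the threshold, and over 8 no transcript did. Signs of single members differed from those with all libraries in 83 of 798 refits. The count of genes called among all genes was 0 in 17 of the 19, with a range of 0 to 1 over single libraries left out (1 without atractylon replicate 1), and 2 without replicate 1 of both groups, an alternative chosen after seeing the data, as was keeping gene IDs apart. Without atractylon replicate 1, 11 of the 42 tested members had an unadjusted p below 0.05 by edgeR's test. That is a larger share than the 10.7% of all genes that did. The treated libraries then left run high in GC-rich genes, and the treatment cannot be told apart from the GC trend there. The count of positive members ranged from 12 to 22 over single libraries left out, was 21 without replicate 1 of both groups, and was 12 to 18 otherwise. The median of the constitutive members ranged from -0.087 to 0.014 over single libraries left out, and was -0.002 with the GC trend removed, -0.001 with GC trend and replicate block, and 0.003 without replicate 1 of both groups. The median of the stress-induced members ranged from -0.123 to -0.005. With the replicate block alone the medians were -0.061 for stress-induced and -0.050 for constitutive members, with 0 genes called. Same-numbered libraries of the 2 groups had correlated deviations of 0.131, 0.175 and 0.010, and atractylon replicate 3 correlated no better with its own number than with untreated replicate 2 (0.020), so the numbers were not taken as pairs. Summing HSPA1A and HSPA1B gave no feature above the filter, so no fold change. HSPA1A, HSPA1B, HSPA2 and DNAJA4 had at most 4 counts in any library, so no change in them could be tested.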
